A study of Mus musculus with 20 samples.

Results

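PRC1.1 is the variant Polycomb repressive complex 1 that contains BCOR. The 10 genes examined here, *Bcor*, its paralog *Bcorl1*, *Kdm2b*, *Pcgf1*, *Rnf2*, *Ring1*, *Rybp*, *Yaf2*, *Usp7* and *Bcl6*, were taken by symbol from the 24315 genes of each expression table. The set holds genes of the complex together with *Bcl6*, whose protein is a partner of BCOR and not a subunit. It was chosen with earlier results of these data known. RNA-seq was performed on 2 populations sorted from the bone marrow of the same C57BL/6 mice, LSK cells (Lin-/Sca1+/Kit+, the stem and early progenitor compartment) and MEP (megakaryocyte-erythroid progenitors). The question addressed here was whether the RNA of the partners of BCOR, or of its paralog, differed when *Bcor* was deleted alone or together with *Dnmt3a*.

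For each population there were 3 libraries from wild type mice with untargeted genes (WT), 3 from Dnmt3a-/-, 2 from Bcor-/- and 2 from Bcor-/-Dnmt3a-/- mice. Dnmt3a-/-, Bcor-/- and Bcor-/-Dnmt3a-/- mice carried conditional alleles and the *Mx1-Cre* transgene, an interferon-responsive Cre that pIpC switches on in hematopoietic and some other cells. The study describes the sequenced Bcor-/-Dnmt3a-/- mice as leukemic, whereas the labels give neither a disease stage nor an age. The label of Bcor-/- replicate 1 names a pair of mice in both populations. In the column names, WT libraries share the tag 3A_XY with Dnmt3a-/- libraries and lack the Cre tag of the other genotypes. Whether WT mice carried Cre or received pIpC is not stated in the sources used here. In Bcor-/- against WT, any difference of line or Cre cannot be told apart from *Bcor* deletion.

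BCOR brings PCGF1, KDM2B, the E3 ligases RING1 and RNF2 and their cofactors RYBP or YAF2 into one complex, which ubiquitinates histone H2A and represses genes. KDM2B holds a CXXC zinc finger that binds unmethylated CpG dinucleotides and so brings the complex to CpG islands. BCOR was first known as a corepressor of BCL6, a transcriptional repressor best studied in germinal center B cells, and BCORL1 is its closest relative.

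*Bcl6* and *Bcorl1* are the members that were called in Bcor-/- cells, so the bases upstream of their starts are shown. Windows of the 250 bases before a transcript start were taken from RefSeq on GRCm38.p6, and 7 of the 10 genes had an entry. *Pcgf1*, *Rybp* and *Yaf2* did not. CG dinucleotides, the bases that KDM2B binds and that DNMT3A can methylate, are in capitals.
*Bcorl1* (chrX:48341108-48341357, plus strand): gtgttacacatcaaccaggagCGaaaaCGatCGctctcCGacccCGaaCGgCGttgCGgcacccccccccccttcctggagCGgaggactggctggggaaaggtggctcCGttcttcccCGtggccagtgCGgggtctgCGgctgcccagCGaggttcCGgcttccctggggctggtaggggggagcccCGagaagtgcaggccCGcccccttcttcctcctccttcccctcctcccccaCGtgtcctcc
*Bcl6* first start (chr16:23988853-23989102, minus strand): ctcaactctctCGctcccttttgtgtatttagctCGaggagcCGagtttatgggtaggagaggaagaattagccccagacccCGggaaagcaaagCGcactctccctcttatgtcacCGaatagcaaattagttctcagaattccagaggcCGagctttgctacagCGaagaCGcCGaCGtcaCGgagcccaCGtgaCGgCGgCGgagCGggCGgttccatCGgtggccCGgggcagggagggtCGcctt
*Bcl6* second start (chr16:23981284-23981533, minus strand): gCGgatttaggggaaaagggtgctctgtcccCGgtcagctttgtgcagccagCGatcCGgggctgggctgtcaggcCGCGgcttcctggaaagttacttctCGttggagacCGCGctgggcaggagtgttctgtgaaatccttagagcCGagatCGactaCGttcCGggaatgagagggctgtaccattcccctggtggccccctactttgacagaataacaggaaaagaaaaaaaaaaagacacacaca
The *Bcorl1* window held 18 CG, more than 78.3% of the 32851 RefSeq windows of the same length, which held a median of 6.00. The *Bcl6* windows held 21 and 13 CG, more than 83.7% and 68.5% of all windows. The palindrome TTCNNNGAA, shared by STAT and BCL6 motifs, was found in both *Bcl6* windows, in the *Bcor* windows and in no other member's, against 7.02% of all windows. The matches were TTCtcaGAA in the first *Bcl6* window, TTCctgGAA, TTCtgtGAA and TTCcggGAA in the second, and TTCggaGAA before *Bcor* (capitals mark the fixed letters). The BCL6 motif TTCCTAGAA, sought on both strands and itself a form of that palindrome, was in no member's window and in 0.347% of all windows. A match is a description of the letters and not of binding.

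Values are FPKM as deposited (fragments counted per kilobase of transcript after scaling to each library's mapped total). Without read counts the depth is unknown. Judged from the step between low values, libraries were sequenced 0.78 to 1.31 times as deeply as WT replicate 1 in LSK, and up to 1.61 times as deeply in MEP. Replicates of WT, Dnmt3a-/- and Bcor-/- correlated across genes at a Pearson r of 0.971 to 0.987, and the pair of Bcor-/-Dnmt3a-/- libraries at only 0.849 in LSK and 0.815 in MEP. Fold changes are on the log2(FPKM + 1) scale with their standard errors (SE), from one limma fit of the 11952 LSK or 10933 MEP genes that averaged 1 FPKM or more. A gene was called changed where limma's unadjusted p was under 0.05 and the fold change exceeded 1.5. Adjusted p-values are Benjamini-Hochberg values over all tested genes. An exact permutation test of 2 libraries against 3 cannot give a p below 0.1.

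The labels were first checked against the RNA of the deleted genes. *Bcor* was measured at 29.5 to 32.4 FPKM in the WT and 30.1 to 35.8 FPKM in the Dnmt3a-/- LSK libraries. In Bcor-/- LSK the values were 22.4 and 23.2 FPKM, and those of Bcor-/-Dnmt3a-/- mice 24.0 and 37.4 FPKM. Both Bcor-/- libraries lay below all WT libraries, at 0.734 of the WT mean, a log2 fold change of -0.43 (SE 0.17, adjusted p = 0.16), while Bcor-/-Dnmt3a-/- replicate 2 lay above every WT library. In MEP, *Bcor* had 26.9, 21.3 and 22.4 FPKM in WT, 23.3, 25.3 and 23.8 FPKM in Dnmt3a-/-, 19.5 and 22.4 FPKM in Bcor-/- and 19.6 and 26.7 FPKM in Bcor-/-Dnmt3a-/- libraries. The MEP groups overlapped, with -0.15 (SE 0.16) for Bcor-/- against WT. The Bcor allele lacks exons 8 to 10, and numbered within each of the 5 coding transcripts of GENCODE these exons hold 751 to 929 of 6113 to 6941 bases, or 10.9 to 13.4%. Gene-level FPKM therefore count mostly exons that the allele keeps. The deletion shifts the reading frame, and the study describes the resulting transcript as very unstable, so a low gene-level value would be looked for where *Bcor* was deleted. At 0.734 of WT in LSK and 0.892 in MEP such a loss was not seen in Bcor-/- libraries, and Bcor-/-Dnmt3a-/- LSK replicate 2 went against its label. The RNA thus gave no check of the *Bcor* deletion. In its mice the study did not detect *Bcor* mRNA by RT-PCR of Bcor-/- LSK cells. It reports loss of the protein by Western blot of Lin- marrow cells, and a *Bcor* deletion in Bcor-/- and leukemic Bcor-/-Dnmt3a-/- mice. These assays are not analysed here, and genotypes are given as labelled.

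*Dnmt3a* ranged from 16.1 to 19.8 FPKM in WT LSK and from 11.3 to 16.9 FPKM in Dnmt3a-/- LSK, and both Bcor-/-Dnmt3a-/- LSK libraries lay below these, at 10.4 and 10.9 FPKM. In Bcor-/- LSK, where *Dnmt3a* was not targeted, it was at 13.9 and 14.1 FPKM, at 0.793 of the WT mean against 0.795 in Dnmt3a-/-, so in LSK a lower level was not particular to Dnmt3a-/-. The study describes the deletion of *Dnmt3a* by *Mx1-Cre* as incomplete in Dnmt3a-/- mice and as complete only in leukemic Bcor-/-Dnmt3a-/- mice. An incomplete deletion would limit Dnmt3a-/- mice as a model of the loss of *Dnmt3a*. In MEP it ranged from 5.49 to 6.64 FPKM in WT and from 2.56 to 5.40 FPKM in Dnmt3a-/-, while Bcor-/- libraries had a mean of 7.61 FPKM and Bcor-/-Dnmt3a-/- libraries 6.85 and 3.44 FPKM. The first of these, replicate 1, lay above every WT MEP library and so went against its label. The contrasts with and without *Dnmt3a* deletion follow the labels. By the study's account, Bcor-/-Dnmt3a-/- mice were leukemic and their *Dnmt3a* deletion was more complete than in Dnmt3a-/- mice. In Bcor-/-Dnmt3a-/- against Dnmt3a-/- these differences cannot be told apart from *Bcor* deletion. The same holds wherever an effect with minus without *Dnmt3a* deletion is given. *Bcor* and *Bcorl1* are both X-linked. *Xist* did not exceed 0.0649 FPKM and the Y-linked *Ddx3y* was at least 14.8 FPKM in every library.

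All 10 genes passed the filter in both populations, also on the WT libraries alone. In WT LSK the deubiquitinase *Usp7* was highest at 59.3 ± 2.07 FPKM (SD, n = 3), followed by *Rnf2* at 33.0 ± 2.62 and *Bcor* at 31.0 ± 1.41, whose ranges overlapped. *Kdm2b* was at 24.4 ± 0.462, *Ring1* at 14.1 ± 1.30 and *Yaf2* at 11.9 ± 1.29, and of these *Ring1* and *Yaf2* overlapped. *Pcgf1* at 7.81 ± 1.20 and *Rybp* at 7.38 ± 0.491 overlapped each other, and *Bcorl1* at 5.08 ± 0.845 and *Bcl6*, from 3.88 to 4.07, were lowest. The median tested gene had 15.1 FPKM. In WT MEP the order again began with *Usp7* (88.6 ± 4.43) and ended with *Bcorl1* (3.65 ± 0.583) and *Bcl6* (1.45 ± 0.246). Between them *Kdm2b* (28.8 ± 2.16), *Bcor* (23.5 ± 2.96), *Rnf2* (21.2 ± 3.38) and *Ring1* (15.4 to 23.1) each overlapped the next, as did *Yaf2* (8.90 to 11.5), *Pcgf1* (8.59 ± 2.95) and *Rybp* (6.09 ± 0.975). LSK and MEP values come from separate tables, so levels were ordered within a population only.

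**Figure D1:**
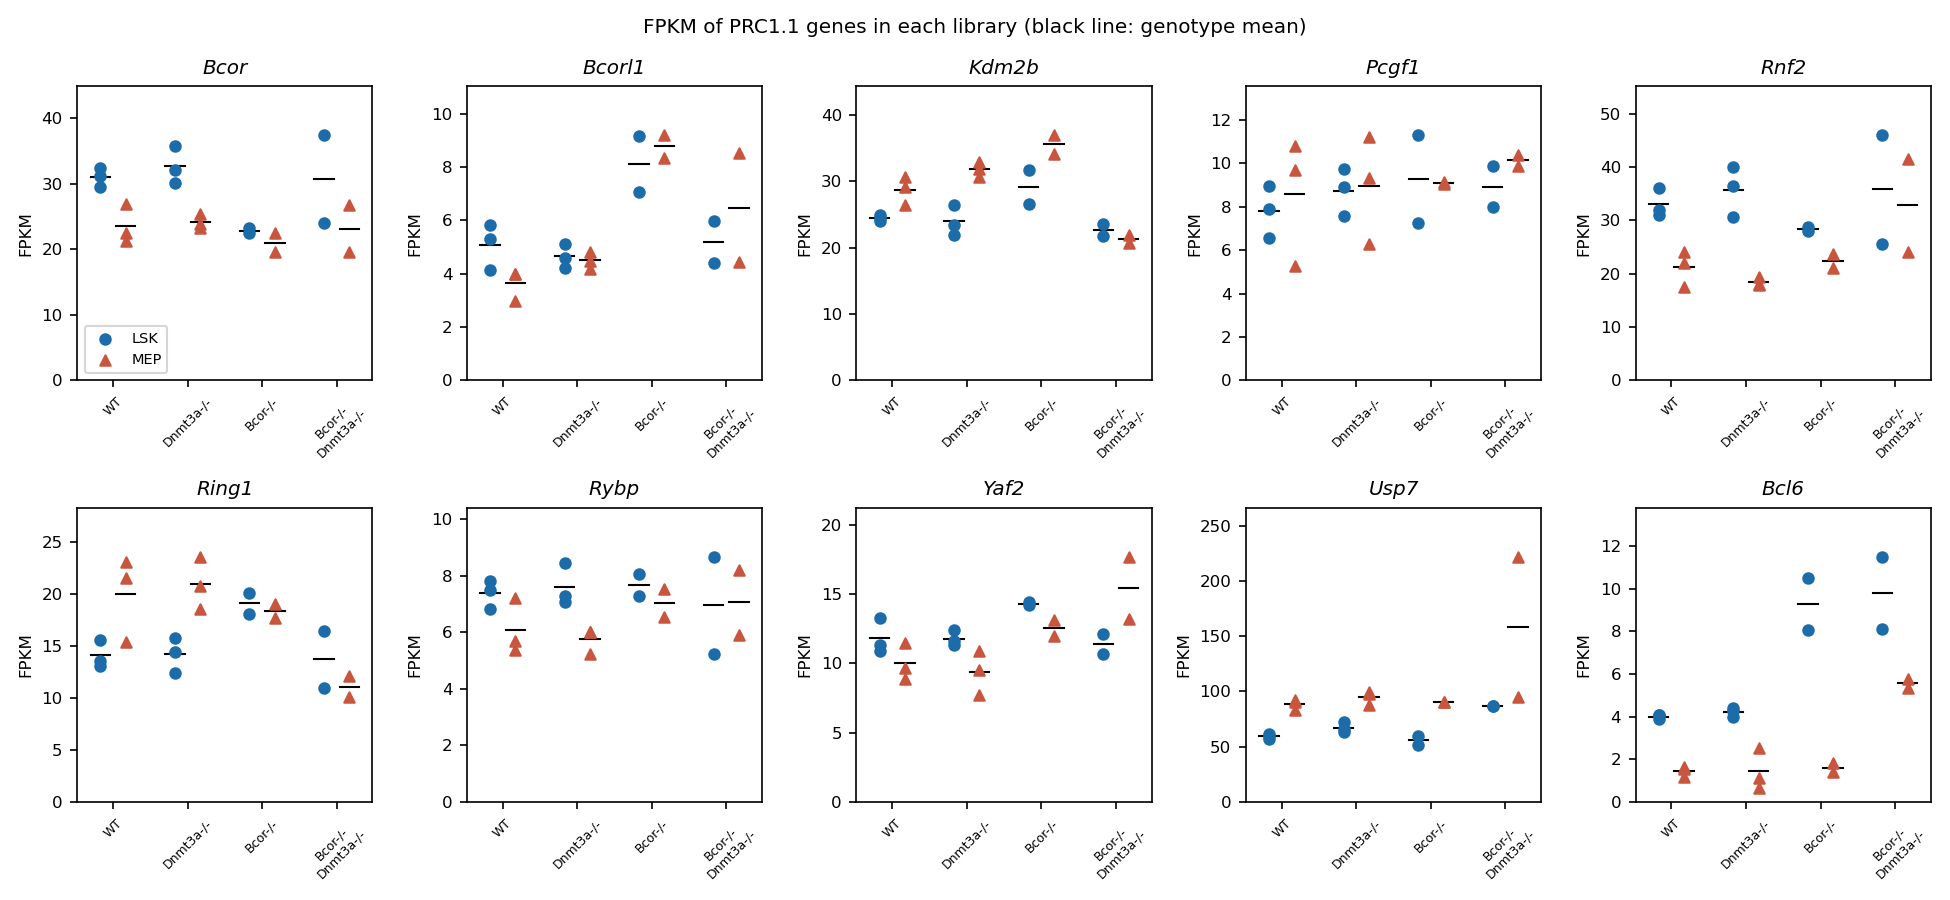
FPKM (linear axes from 0) of the 10 genes examined by genotype, with circles for LSK libraries, triangles for MEP libraries and black lines for means of 2 or 3 libraries. *Bcl6* is at 8.05 FPKM or more in the 4 LSK libraries labelled Bcor-/- or Bcor-/-Dnmt3a-/- and at 4.39 or less in the other 6.

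*Bcl6* RNA was higher in LSK cells of both genotypes labelled as *Bcor* deleted, and in MEP it passed the threshold in the genotype labelled Bcor-/-Dnmt3a-/- and not in Bcor-/-. In LSK it had 4.05, 4.07 and 3.88 FPKM in WT and 4.39, 3.98 and 4.28 FPKM in Dnmt3a-/- libraries. The Bcor-/- libraries held 8.05 and 10.5 FPKM, and the Bcor-/-Dnmt3a-/- libraries 8.09 and 11.5 FPKM. All 4 libraries of the genotypes labelled as *Bcor* deleted, including the one with 37.4 FPKM of *Bcor*, lay above the 6 others. The ratio of means was 2.32 for Bcor-/- against WT, with a log2 fold change of 1.03 (SE 0.18, adjusted p = 0.019). For Bcor-/-Dnmt3a-/- against Dnmt3a-/-, a contrast that shares no library with the first, the ratio was again 2.32, with a log2 fold change of 1.03 (SE 0.18, adjusted p = 0.0026). The difference between these 2 effects was 0.00 (95% interval -0.56 to 0.57). From its own analysis of Bcor-/-Dnmt3a-/- LSK, the study already lists BCL6 among genes upregulated there and in human acute erythroid leukemia.

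In MEP *Bcl6* was at 1.65, 1.52 and 1.18 FPKM in WT, 2.51, 1.12 and 0.660 in Dnmt3a-/-, and 1.80 and 1.40 in Bcor-/- libraries. These 3 genotypes overlapped, and Bcor-/- differed from WT by 0.09 (SE 0.31, 95% interval -0.61 to 0.79). It was at 5.34 and 5.76 FPKM in Bcor-/-Dnmt3a-/- MEP, above every other MEP library. The mean was 3.89 times that of Dnmt3a-/- (95% interval of the log2 fold change 0.80 to 2.20, adjusted p = 0.0061), and 3.83 times that of WT (log2 fold change 1.42, SE 0.31, adjusted p = 0.0094). With 1 variance per genotype in the fit both calls were lost, with adjusted p = 0.27 and adjusted p = 0.35. The effect of *Bcor* deletion on *Bcl6* in MEP was larger with than without *Dnmt3a* deletion by 1.42 (SE 0.43, adjusted p = 0.059), called at the unadjusted p and lost with quantile normalization (0.91) and with 1 variance per genotype (adjusted p = 0.36). Compared within mice, the effect of the Bcor-/- genotype in LSK exceeded that in MEP by 0.94 (SE 0.32, adjusted p = 0.18), past the unadjusted threshold. This last difference no longer passed it with a pseudocount of 0.1 (1.04) or without Bcor-/- replicate 2 (0.66).

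Granulocytes and B cells also express *Bcl6*, so their markers are given beside it. The summed FPKM of the 9 granulocyte and monocyte markers found in the table, of 10 listed, was 3059, 11461 and 3107 in WT LSK and 2315 to 3477 in Dnmt3a-/-. It was 15502 and 22372 in Bcor-/- LSK, compared with 7148 and 6870 in Bcor-/-Dnmt3a-/- LSK, and all 9 were at 1 FPKM or more in every LSK library. In MEP the sum was 273 to 684 in WT, 406 to 731 in Bcor-/-, and 6015 and 12715 in Bcor-/-Dnmt3a-/- libraries, the libraries that were also highest in *Bcl6*. The overlapping sums of WT and Bcor-/- MEP hold markers of opposite sign, since 3 of 9 were called higher, *Elane* (2.54), *Mpo* (2.19) and *Prtn3* (2.02), which encode granule proteins of early granulocytes, and 1 lower, *S100a8* (-1.10), with adjusted p of 0.6 to 0.88. The 7 B cell markers summed to 39.6 to 82.8 FPKM in WT LSK, 32.5 to 74.3 in Bcor-/-, and 1274 to 2443 in Bcor-/-Dnmt3a-/- LSK. In MEP they summed to 20.6 to 111 in WT and to 1881 and 146 in Bcor-/-Dnmt3a-/- libraries. No defining marker of either list was at 0 throughout a genotype except *Ms4a1* in Bcor-/- MEP. The part of these cells in the *Bcl6* values was not tested, and in bulk RNA more cells of a type and more RNA per cell cannot be told apart.

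**Figure D2:**
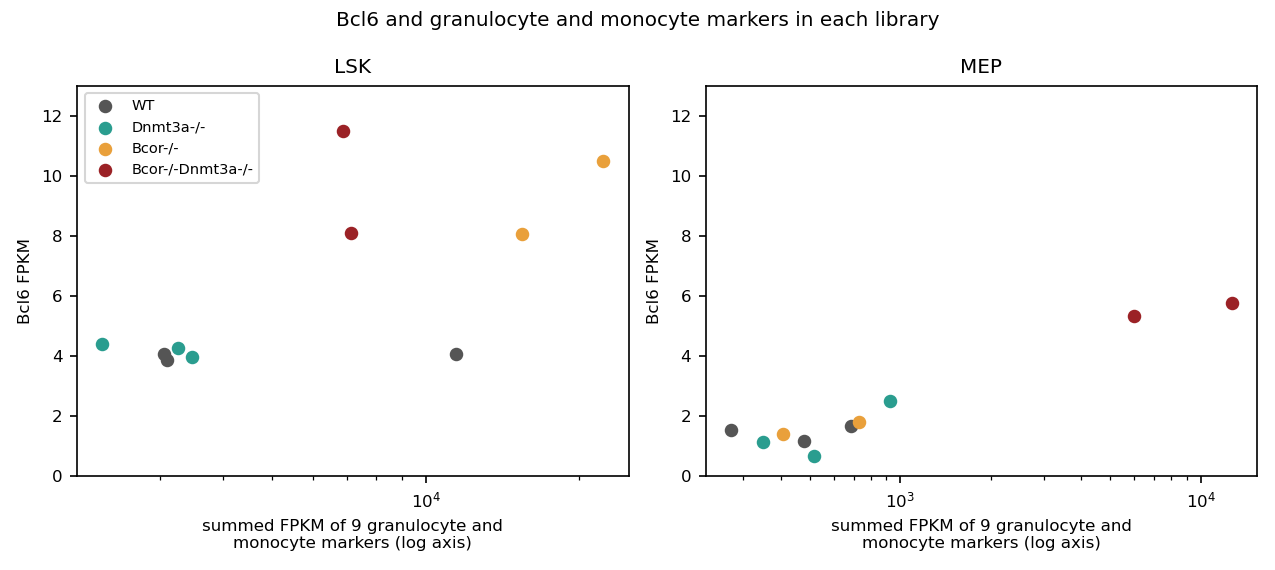
*Bcl6* FPKM (linear axis) against the summed FPKM of 9 granulocyte and monocyte markers (log axis) in each LSK (left) and MEP (right) library, colored by genotype. In LSK the marker sums run from 2315 to 22372, and in MEP both Bcor-/-Dnmt3a-/- libraries are highest on both axes.

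*Bcorl1*, which encodes the closest relative of BCOR, was higher in Bcor-/- MEP. It was at 2.97, 3.99 and 3.98 FPKM in WT MEP and 9.20 and 8.35 in Bcor-/- MEP, without overlap. Dnmt3a-/- MEP had 4.19, 4.49 and 4.83 FPKM, and Bcor-/-Dnmt3a-/- MEP had 4.44 and 8.51. The mean in Bcor-/- was 2.41 times that in WT, with a log2 fold change of 1.08 (SE 0.24) that passed the unadjusted threshold. The adjusted p was 0.28, and it was 0.017 when both Bcor-/-Dnmt3a-/- libraries were left out of the fit, an alternative chosen after the data had been seen. *Bcorl1* was the 1 gene of the 10 called in this contrast, in which 2.76% of all tested genes were. By the adjusted p, 0 of 10 and 0.0640% of all genes were called. In the same contrast *Elane*, *Mpo* and *Prtn3* were called higher and *S100a8* lower, and the part of such cells in the *Bcorl1* values was not tested.

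In Bcor-/-Dnmt3a-/- MEP, *Bcorl1* was called against WT (0.64, SE 0.24, adjusted p = 0.067) and not against Dnmt3a-/- (0.39, SE 0.24, 95% interval -0.15 to 0.92). The call rested on Bcor-/-Dnmt3a-/- replicate 2, without which the change was 0.24 (adjusted p = 0.32), and it was also lost without WT replicate 1 (0.53, adjusted p = 0.17), with quantile normalization (0.21, adjusted p = 0.63), with only the genotypes compared (adjusted p = 0.24) and with 1 variance per genotype (adjusted p = 0.4). In LSK, *Bcorl1* had 5.29, 4.15 and 5.81 FPKM in WT, 5.12, 4.60 and 4.22 FPKM in Dnmt3a-/-, 7.05 and 9.16 FPKM in Bcor-/- and 5.96 and 4.40 FPKM in Bcor-/-Dnmt3a-/- libraries. Both Bcor-/- libraries lay above all others. The log2 fold change of 0.58 (SE 0.19, adjusted p = 0.11) fell just short of a fold change of 1.5, and reached it with a pseudocount of 0.1, with quantile normalization, with the replicate number as a block, and without WT replicate 1, WT replicate 3 or Bcor-/- replicate 1. The Bcor-/- effect in LSK minus that in MEP was -0.50 (SE 0.33, adjusted p = 0.46), and the effect with minus without *Dnmt3a* deletion was -0.69 (SE 0.33, adjusted p = 0.19) in MEP and -0.46 (SE 0.28, adjusted p = 0.29) in LSK.

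Of the FPKM of *Bcor* and *Bcorl1* together, *Bcorl1* made up 14.1, 11.8 and 16.4% in WT LSK and 24.0 and 28.3% in Bcor-/- LSK. In MEP its share was 9.96, 15.7 and 15.1% in WT, 32.0 and 27.1% in Bcor-/-, compared with 18.5 and 24.2% in Bcor-/-Dnmt3a-/- libraries. The Bcor-/- shares lay above all WT shares in both populations, with an exact two-sided permutation p of 0.1 in each, the smallest that 2 libraries against 3 can give. Bcor-/-Dnmt3a-/- LSK had 19.9 and 10.5%, which overlapped WT.

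*Kdm2b*, the subunit that binds CpG, had differences of opposite sign in the 2 Bcor contrasts of MEP. It was at 29.1, 26.4 and 30.7 FPKM in WT, 31.9, 33.0 and 30.7 in Dnmt3a-/- and 34.2 and 37.0 FPKM in Bcor-/- libraries, whereas 21.9 and 20.7 FPKM were found in Bcor-/-Dnmt3a-/- MEP. Bcor-/- libraries were the highest and Bcor-/-Dnmt3a-/- libraries the lowest of the 10. The log2 fold change was 0.30 (SE 0.10, adjusted p = 0.66) for Bcor-/- against WT and -0.56 (SE 0.10, adjusted p = 0.0037) for Bcor-/-Dnmt3a-/- against Dnmt3a-/-, each under a fold change of 1.5. The difference between these effects was -0.86 (SE 0.14, adjusted p = 0.0086) and stayed past both thresholds under each of the 15 alternative fits, from -0.97 to -0.80. The Bcor-/-Dnmt3a-/- MEP libraries also stood apart in marker sums. Macrophage markers summed to 746 FPKM in replicate 1 and 8.20 in replicate 2, against 3.13 to 8.58 in the other genotypes, and T and NK cell markers to 225 and 80.8, against 4.60 to 17.4. Megakaryocyte markers summed to 17.8 and 70.6 FPKM, against 86.4 to 334, while the B cell sum was highest in replicate 1 and the erythroid sum in replicate 2. The part of these cells in the *Kdm2b*, *Ring1*, *Rnf2* and *Yaf2* values of these libraries was not tested. In LSK *Kdm2b* was at 24.0, 24.5 and 24.9 FPKM in WT, 26.5, 22.0 and 23.4 in Dnmt3a-/- and 26.6 and 31.8 FPKM in Bcor-/- libraries, whereas 23.6 and 21.8 FPKM were found in Bcor-/-Dnmt3a-/- libraries. No LSK contrast of *Kdm2b* passed the test, and the LSK difference between the effects was -0.32 (SE 0.17, adjusted p = 0.24). *Rnf34* and *A930024E05Rik* overlap *Kdm2b* on the other strand, and as the strandedness of the libraries is not stated, reads may be shared.

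*Ring1* and *Rnf2*, which encode the alternative E3 ligase subunits, had changes of opposite sign in Bcor-/-Dnmt3a-/- MEP against Dnmt3a-/-. *Ring1* was at 21.5, 23.1 and 15.4 FPKM in WT MEP, 20.8, 23.6 and 18.6 in Dnmt3a-/- and 19.0 and 17.7 FPKM in Bcor-/- libraries, whereas 10.1 and 12.1 FPKM were found in Bcor-/-Dnmt3a-/- libraries. The last pair lay below every other MEP library, with -0.86 (SE 0.18, adjusted p = 0.0072) against Dnmt3a-/- and -0.78 (SE 0.18, adjusted p = 0.013) against WT. With 1 variance per genotype both calls were lost, with adjusted p = 0.24 and adjusted p = 0.34. *Rnf2* was at 22.1, 17.5 and 24.1 FPKM in WT MEP, 18.1, 17.9 and 19.3 in Dnmt3a-/- and 21.0 and 23.7 FPKM in Bcor-/- libraries, whereas 41.5 and 24.1 FPKM were found in Bcor-/-Dnmt3a-/- MEP. Replicate 1 of the last genotype, the library with the raised macrophage and B cell sums, stood apart, while replicate 2 was at the level of the highest WT library. The change against Dnmt3a-/- was 0.75 (SE 0.22, adjusted p = 0.026), and without replicate 1 it was 0.37 (adjusted p = 0.094). The call was also lost with 1 variance per genotype (adjusted p = 0.23). Against WT, whose libraries overlapped it, the difference was 0.56 (SE 0.22, adjusted p = 0.078) and was not called. In some alternatives, among them the replicate block and leaving out WT replicate 3, it was called. *Trmt1l* overlaps *Rnf2* on the other strand. *Gm37419* overlaps *Bcl6* and *Gm18422* overlaps *Rybp* in the same way, though neither is among the genes measured here. Reads may be shared there too.

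The share of *Ring1* in the FPKM of both ligases was 49.3, 56.8 and 39.0% in WT MEP and 19.5 and 33.5% in Bcor-/-Dnmt3a-/- MEP, which lay below all Dnmt3a-/- and WT libraries. In LSK *Ring1* was at 13.6, 15.6 and 13.1 FPKM in WT, 15.8, 12.4 and 14.4 in Dnmt3a-/- and 20.1 and 18.1 FPKM in Bcor-/- libraries, whereas 11.0 and 16.4 FPKM were found in Bcor-/-Dnmt3a-/- libraries. Bcor-/- was above all other LSK libraries, with 0.41 (SE 0.18, adjusted p = 0.18) against WT, past the unadjusted p and below the fold threshold. The *Ring1* share was 41.7 and 38.6% in Bcor-/- LSK against 27.5, 33.4 and 29.1% in WT. *Rnf2* in LSK was at 36.0, 31.1 and 32.0 FPKM in WT, 30.6, 40.0 and 36.4 in Dnmt3a-/- and 28.1 and 28.8 FPKM in Bcor-/- libraries, whereas 46.0 and 25.6 FPKM were found in Bcor-/-Dnmt3a-/- libraries, and no contrast passed the test. Compared within mice, the Bcor-/-Dnmt3a-/- effect against WT on *Ring1* was higher in LSK than in MEP by 0.72 (SE 0.20, adjusted p = 0.037), which was lost with 1 variance per genotype (adjusted p = 0.43) and without Bcor-/-Dnmt3a-/- replicate 2 (0.57, adjusted p = 0.085). The *Bcor* effect on *Ring1* in MEP with minus without *Dnmt3a* deletion differed by -0.76 (SE 0.26, adjusted p = 0.079), lost with 1 variance per genotype (adjusted p = 0.35) and without Bcor-/- replicate 1 (-0.71, adjusted p = 0.22).

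**Figure D3:**
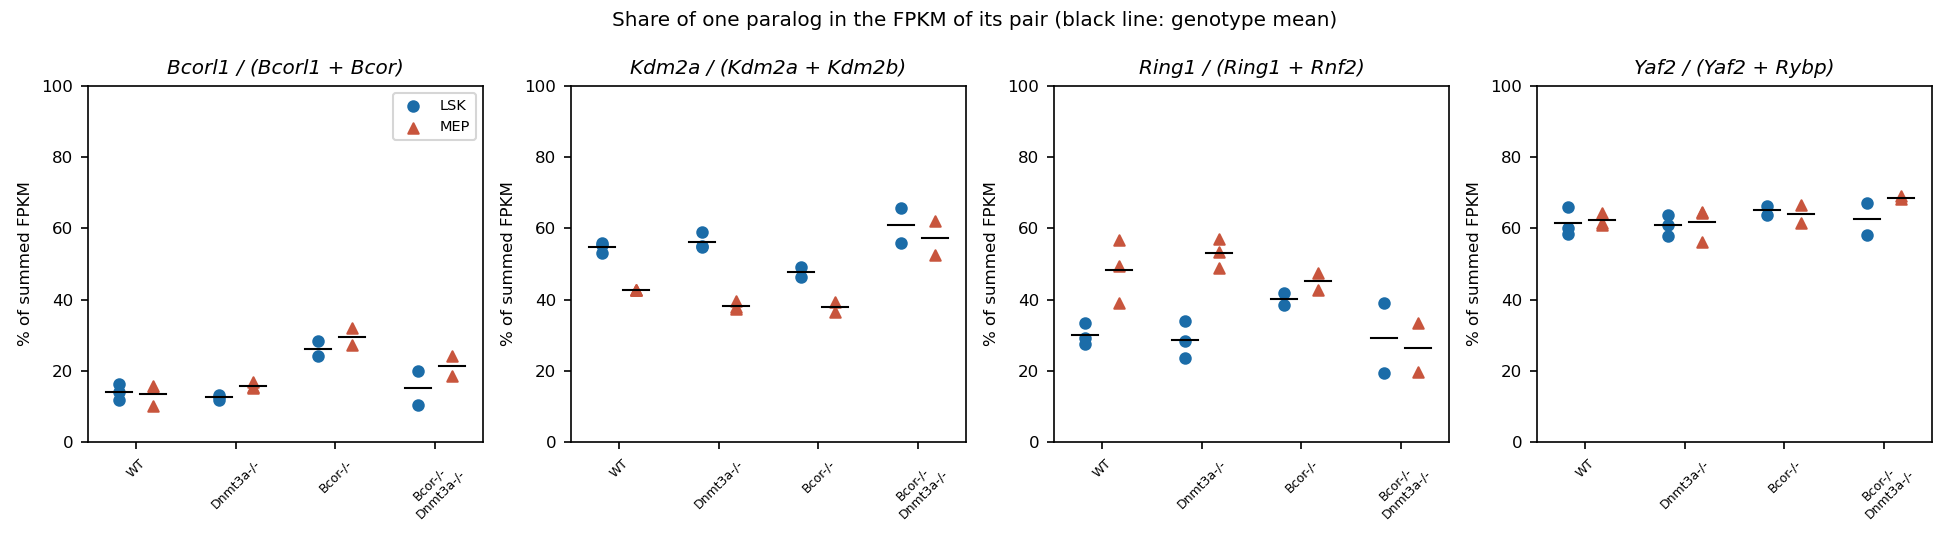
Share of the first-named gene in the summed FPKM of 4 paralog pairs (linear axis from 0 to 100%), by genotype, with circles for LSK libraries, triangles for MEP libraries and black lines for means. The *Bcorl1* share is 24.0% or more in the Bcor-/- libraries and 16.4% or less in the WT libraries.

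RYBP and YAF2 are alternative cofactors that stimulate the ligase. *Yaf2* was at 9.66, 8.90 and 11.5 FPKM in WT MEP, 10.9, 9.51 and 7.70 in Dnmt3a-/- and 13.1 and 12.0 FPKM in Bcor-/- libraries, whereas 13.2 and 17.7 FPKM were found in Bcor-/-Dnmt3a-/- libraries. The last pair lay above all other MEP libraries, with 0.66 (SE 0.18, adjusted p = 0.022) against Dnmt3a-/-. Against WT it was 0.57 (SE 0.18, adjusted p = 0.044), short of a fold change of 1.5 and so not called. The call against Dnmt3a-/- was lost without Bcor-/-Dnmt3a-/- replicate 2 (0.47, adjusted p = 0.082), without Dnmt3a-/- replicate 3 (0.54, adjusted p = 0.072), with quantile normalization (0.43, adjusted p = 0.098) and with 1 variance per genotype (adjusted p = 0.35). Within mice, the Bcor-/-Dnmt3a-/- effect on *Yaf2* against WT in LSK minus that in MEP was -0.62 (SE 0.16, adjusted p = 0.026). That call was lost with 5 of 16 alternatives, namely quantile normalization (-0.52), the replicate block (-0.58, adjusted p = 0.064), 1 variance per genotype (adjusted p = 0.38), and leaving out WT replicate 2 (-0.58) or Bcor-/-Dnmt3a-/- replicate 2 (-0.50). In LSK *Yaf2* was at 10.9 to 13.3 FPKM in WT, 11.3 to 12.4 in Dnmt3a-/- and 14.2 and 14.4 FPKM in Bcor-/- libraries, whereas 10.7 and 12.1 FPKM were found in Bcor-/-Dnmt3a-/- libraries, with 0.25 (SE 0.13, adjusted p = 0.25) for Bcor-/- against WT.

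*Rybp* ranged from 5.22 to 8.68 FPKM over the 10 LSK libraries, with both extremes in Bcor-/-Dnmt3a-/-, and from 5.24 to 8.22 over the 10 MEP libraries. *Pcgf1*, the Polycomb group RING finger protein that defines PRC1.1, ranged from 6.57 to 11.3 FPKM in LSK and from 5.25 to 11.2 in MEP. Neither gene passed the test in any contrast, and in each contrast the libraries overlapped. For *Pcgf1* the 95% interval of the Bcor-/- effect was -0.27 to 0.68 in LSK and -0.55 to 0.80 in MEP, and for *Rybp* -0.39 to 0.48 and -0.22 to 0.59, so changes of 1.5-fold are not excluded for *Pcgf1* in LSK or for either gene in MEP.

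*Usp7* was at 61.0, 59.9 and 57.0 FPKM in WT LSK, 66.0, 72.1 and 63.5 in Dnmt3a-/- and 51.8 and 59.9 FPKM in Bcor-/- libraries, whereas 86.9 and 87.2 FPKM were found in Bcor-/-Dnmt3a-/- LSK. The last pair lay above all others, with 0.37 (SE 0.10, adjusted p = 0.025) against Dnmt3a-/- and 0.55 (SE 0.10, adjusted p = 0.0046) against WT, both under a fold change of 1.5. These LSK libraries held 2558 and 8219 summed FPKM of 8 erythroid markers, against 61.8 to 211 in the other genotypes, and 240 and 171 of T and NK cell markers, against 2.84 to 10.6, and the part of these cells in the *Usp7* values was not tested. In MEP *Usp7* was at 83.6 to 99.6 FPKM in the 8 libraries of the other genotypes and at 94.5 and 222 in Bcor-/-Dnmt3a-/-. The call against WT (0.71, SE 0.29, adjusted p = 0.09) rested on replicate 2, without which it was 0.09 (adjusted p = 0.48), and was also lost without any single WT, Dnmt3a-/- or Bcor-/- library and in a fit of only the genotypes compared. That library also held 66492 summed FPKM of 8 erythroid markers, against 834 to 1205 in WT and 1771 in replicate 1, and the part of erythroid cells in it was not tested.

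The counts of called members were set beside those of all tested genes. In LSK 1 of 10 was called for Bcor-/- against WT, where 13.2% of all tested genes were (1 of 10 and 5.77% by the adjusted p). For Bcor-/-Dnmt3a-/- LSK 1 of 10 was called against Dnmt3a-/-, where 29.8% of all genes were, and 1 of 10 against WT, where 28.3% were. In MEP the same contrasts called 4 of 10, where 34.7% of all genes were called, and 4 of 10, where 30.9% were. Of the effects with minus without *Dnmt3a* deletion, 0 of 10 were called in LSK (25.7% of all genes) and 3 of 10 in MEP (26.8%). The Bcor-/- effect differed between LSK and MEP for 1 of 10 (10.8%), and the Bcor-/-Dnmt3a-/- effect for 2 of 10 (28.0%). Libraries of Bcor-/- and WT did not overlap for 7 of 10 genes in LSK, against 54.0% of all genes, and for 3 of 10 in MEP, against 30.8%. Those of Bcor-/-Dnmt3a-/- and Dnmt3a-/- did not overlap for 2 of 10 in LSK (51.1%) and 5 of 10 in MEP (55.3%), and those of Bcor-/-Dnmt3a-/- and WT for 3 of 10 (49.6%) and 6 of 10 (50.5%). The median log2 fold change of the 10 genes in Bcor-/- was 0.22 in LSK and 0.11 in MEP, against -0.01 for all genes in each. The contrasts of Bcor-/- and Bcor-/-Dnmt3a-/- with WT share the WT libraries. Dnmt3a-/- against WT called 0 of 10 in either population, where limma called 0.443% of LSK and 0.412% of MEP genes, and no member reached an unadjusted p under 0.05. Dnmt3a-/- and WT libraries did not overlap for 1 of 10 in LSK, where 9.61% of all genes did not, and for 1 of 10 in MEP, where 10.4% did not.

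**Figure D4:**
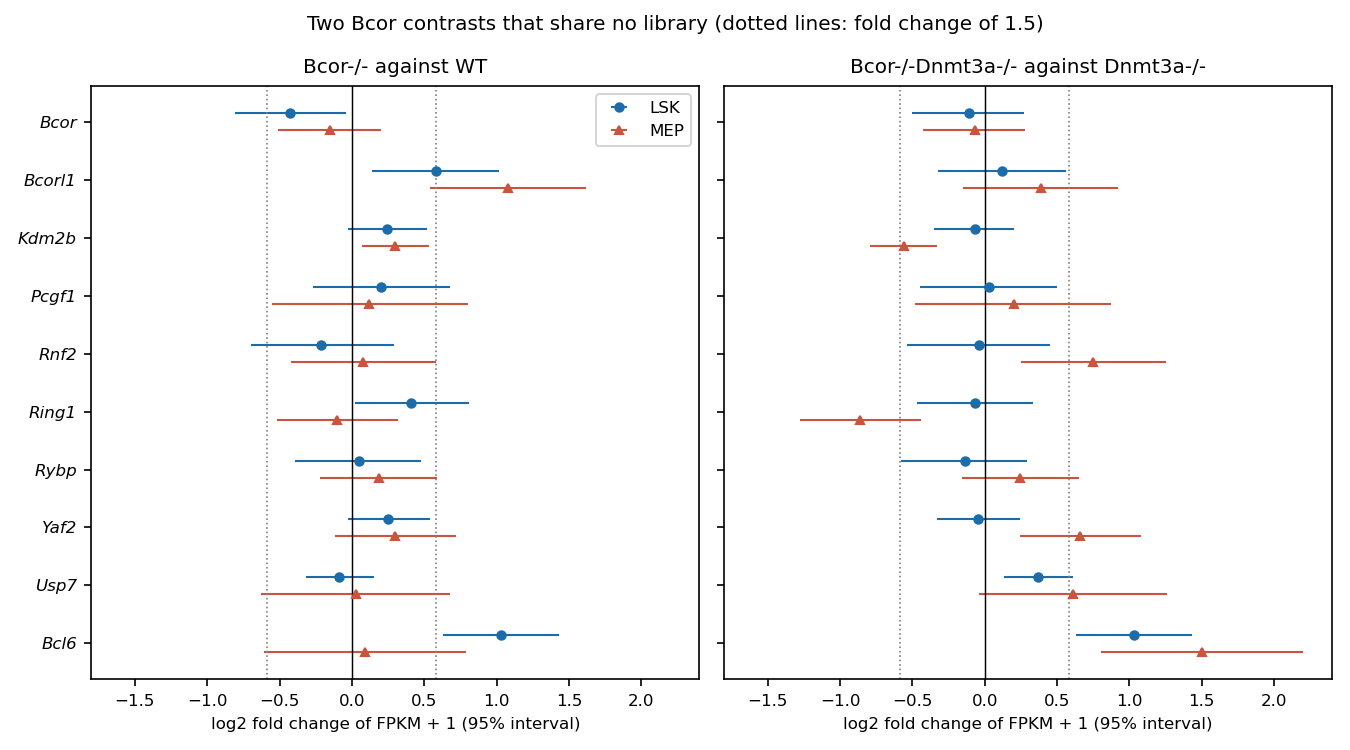
log2 fold change of FPKM + 1 with 95% intervals from limma for Bcor-/- against WT (left) and Bcor-/-Dnmt3a-/- against Dnmt3a-/- (right), circles for LSK and triangles for MEP. *Bcl6* in LSK has 1.03 in both panels, and *Kdm2b* in MEP has 0.30 on the left and -0.56 on the right.

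The other Polycomb genes were then counted from lists of known subunits. These counts stand beside the shares of all tested genes called in either direction. The shares were 13.2% in LSK and 2.76% in MEP for Bcor-/- against WT, and 29.8% and 34.7% for Bcor-/-Dnmt3a-/- against Dnmt3a-/-. By the adjusted p, the reported fit called 3042 LSK and 3284 MEP genes for Bcor-/-Dnmt3a-/- against Dnmt3a-/-. With 1 variance per genotype it called only 1094 and 127. The adjusted p of list genes given below are all from the reported fit. Of SKP1, which completes the KDM2B arm of the complex, and KDM2A, the paralog of KDM2B, only *Skp1a* was called, lower in Bcor-/-Dnmt3a-/- LSK (-0.82 against Dnmt3a-/-, SE 0.16, adjusted p = 0.0049). The third gene of that list, *Bcl6b*, was below the filter. *Kdm2a* made up 42.6 to 42.8% of the FPKM of *Kdm2a* and *Kdm2b* in WT MEP, 37.3 to 39.6% in Dnmt3a-/- MEP and 39.2 and 36.5% for Bcor-/-, below all WT libraries. It was 52.5 and 62.2% in Bcor-/-Dnmt3a-/- MEP. None of the 18 tested genes of other PCGF complexes was called in Bcor-/- cells of either population. In Bcor-/-Dnmt3a-/- against Dnmt3a-/-, 1 of 18 rose and 5 fell in LSK, with the lowest adjusted p for *Pcgf5* (-1.10, SE 0.14, adjusted p = 4.6e-04), *E2f6* (-0.78, SE 0.10, adjusted p = 6.2e-04), *Wdr5* (-0.64, SE 0.10) and *Hdac2* (-0.83, SE 0.18). In MEP 2 rose and 2 fell, among them *L3mbtl2* at -0.93 (SE 0.12, adjusted p = 9.0e-04) and *Wdr5* at -0.65 (SE 0.09). *Pcgf5* had the opposite sign in MEP, 0.65 (SE 0.11, adjusted p = 0.0031). The medians of the list were -0.24 and -0.30, against 0.01 and 0.03 for all genes. In the same LSK contrast 8 of 10 stem and progenitor markers were called lower and 8 of 8 erythroid markers higher. In MEP 4 of 8 erythroid markers were called higher, and the part of such cells in the values of these lists was not tested.

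Of 11 canonical PRC1 genes, 3 were called lower in Bcor-/- LSK, of which only the polyhomeotic gene *Phc1* passed at the adjusted p (-0.68, SE 0.16, adjusted p = 0.042), and none in MEP. The list's median in LSK was -0.33, against -0.01 for all genes. By the adjusted p, 690 of all tested LSK genes were called for Bcor-/- against WT in the reported fit. Without WT replicate 1, 2 or 3 the number was 3, 434 and 36. In the same contrast 4 of 10 stem and progenitor markers were called lower, with a median of -0.98, while 4 of 8 erythroid and 3 of 9 granulocyte and monocyte markers were called higher, and the part of such cells in the canonical PRC1 values was not tested. In Bcor-/-Dnmt3a-/- against Dnmt3a-/-, 3 rose and 3 fell in LSK. In MEP 2 of the 10 genes that passed the filter on WT alone rose and 2 fell. *Scml2* fell in both (-1.62, SE 0.20, and -1.55, SE 0.18), as did *Cbx6* (-0.78, SE 0.19, and -1.74, SE 0.38). *Scml4* rose in LSK. In MEP *Scml4* (2.37, SE 0.50) would not have passed the filter on WT alone, so its call there is not counted. *Phc2* rose in LSK (0.84, SE 0.12) and *Cbx7* in MEP (1.45, SE 0.26).

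Of 11 PRC2 genes, none was called in Bcor-/- LSK and 1 of them, *Phf19*, in MEP (-1.05, SE 0.27, adjusted p = 0.41). In Bcor-/-Dnmt3a-/- against Dnmt3a-/-, 1 rose and 2 fell in LSK, the latter being *Rbbp7* (-0.87, SE 0.13, adjusted p = 0.0015) and *Mtf2* (-0.82, SE 0.21, adjusted p = 0.018). In MEP 2 rose and 1 fell. *Ezh1*, the PRC2 methyltransferase of resting cells, rose by 1.06 (SE 0.15, adjusted p = 0.0012) and *Phf1* by 1.11 (SE 0.33, adjusted p = 0.029). Of 10 deubiquitinases of H2A, *Usp22* was the 1 called in Bcor-/- LSK (-0.80, SE 0.15, adjusted p = 0.021) and the 1 called in Bcor-/-Dnmt3a-/- LSK (-0.65, SE 0.15, adjusted p = 0.0089). None was called in Bcor-/- MEP, and in Bcor-/-Dnmt3a-/- MEP 2 rose and none fell, *Usp3* (0.86, SE 0.13, adjusted p = 0.0016) and *Mysm1*, needed in hematopoietic stem cells (0.87, SE 0.18, adjusted p = 0.0068). Stem and erythroid markers were called in the same Bcor-/-Dnmt3a-/- contrasts, as given above. The part of such cells in the canonical PRC1, PRC2 and deubiquitinase values was not tested.

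BCL6 works through BCOR, SMRT and NCOR and is known to repress the genes of the list of 20 targets. None of 12 other corepressor genes of BCL6 was called in Bcor-/- cells. *Hdac5* was the 1 called in Bcor-/-Dnmt3a-/- LSK against Dnmt3a-/- (0.65, SE 0.21, adjusted p = 0.045). In MEP it rose too (0.89, SE 0.29, adjusted p = 0.037), while *Hdac7* (-1.14, SE 0.17, adjusted p = 0.0017) and *Ctbp1* (-0.60, SE 0.15, adjusted p = 0.015) fell. Of the 20 targets 3 were called lower and none higher in Bcor-/- LSK, where 13.2% of all genes were called, *Ccl3* (-1.51, SE 0.27, adjusted p = 0.021), *Dusp5* (-2.11, SE 0.79, adjusted p = 0.14) and *Cd69* (-1.51, SE 0.61, adjusted p = 0.16). The median of the list was -0.12, against -0.01 for all genes. In Bcor-/- MEP 1 of 18 tested targets was called higher and 1 lower, where 2.76% of all genes were called.

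Of the 20 targets, 9 rose and 5 fell in Bcor-/-Dnmt3a-/- LSK against Dnmt3a-/- (7 and 5 of the 18 that passed the filter on WT alone), where 29.8% of all genes were called. *Ccl3* fell there too (-3.11, SE 0.27, adjusted p = 8.8e-05) and so did *Myc* (-0.97, SE 0.13, adjusted p = 6.2e-04), while *Bcl2l1* (1.81, SE 0.15, adjusted p = 8.3e-05) and *Socs2* (3.53, SE 0.43, adjusted p = 4.5e-04) rose. In MEP 8 of the 17 targets that passed the filter on WT alone rose and 1 fell, where 34.7% of all genes were called. Among these 17 the adjusted p was lowest for *Irf4* (2.85, SE 0.37), *Id2* (2.35, SE 0.33) and *Trp53* (-0.83, SE 0.12). The rise was largest for *Bcl2l1* (3.48, SE 0.81) and *Cish* (3.40, SE 0.87). *Socs2* (3.81, SE 0.76) would not have passed the filter on WT alone, so its call is not counted. *Irf4* and *Prdm1* are plasma cell genes and *Bcl2l1*, *Socs2* and *Cish* respond to erythropoietin signaling. The Bcor-/-Dnmt3a-/- libraries are also those with the raised B cell and erythroid marker sums, whose part was not tested.

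PRC1.1 is known to hold HoxA genes silent in differentiating blood cells. Of 13 HoxA genes and partners, 5 passed the filter in MEP on the WT libraries alone, and 3 of these were called higher in Bcor-/- MEP, where 2.76% of all genes were called. They were *Hoxa10* (1.90, SE 0.33, adjusted p = 0.13), *Hoxa9* (1.47, SE 0.31, adjusted p = 0.26) and *Hoxa7* (1.43, SE 0.38, adjusted p = 0.41), each short of the threshold at the adjusted p. *Hoxa5* entered the test only through the genotypes where it was high, at a mean of 0.874 FPKM in WT and 3.74 in Bcor-/- MEP, so its call is not counted. The granulocyte genes *Elane*, *Mpo* and *Prtn3* were called higher in the same MEP contrast, and the part of such cells in the HoxA values was not tested. In Bcor-/- LSK none of 9 was called and the median was -0.33. In Bcor-/-Dnmt3a-/- LSK 7 of 9 fell against Dnmt3a-/-, with the lowest adjusted p for *Hoxa9* (-2.99, SE 0.32, adjusted p = 2.5e-04), *Meis1* (-4.13, SE 0.49), *Hoxa10* (-2.01, SE 0.26) and *Hoxa5* (-2.17, SE 0.39). In MEP 1 of the 5 rose, *Hoxa10* (1.35, SE 0.33, adjusted p = 0.013). The 10 stem and progenitor markers summed to 1163 to 1371 FPKM in WT LSK, 600 to 884 in Bcor-/- and 183 to 381 in Bcor-/-Dnmt3a-/- LSK, so they were lower in the same libraries, and their part was not tested.

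Genes whose log2 level followed that of *Bcor* most closely over the 10 libraries, which share genotype and normalization, were *Notch1* (Pearson r = 0.98), *Zfp362* (0.96), *Impact* (0.96), *Srsf5* (0.95) and *Thbs1* (0.95) in LSK. In MEP they were *Slc25a25* (0.94), *Taf5* (0.94), *Gm10785* (0.94), *Cxcl10* (0.93) and *Arhgap33* (0.90). The 2 lists share no gene. None of the 9 partners was among them, and the nearest were *Rybp* in LSK (r = 0.38, rank 2705 of 11951) and *Usp7* in MEP (r = 0.49, rank 1289 of 10932). *Bcorl1* was near the far end in LSK, with r = -0.79 (rank 11520), and at -0.21 in MEP.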

How the data were processed

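RNA of 20 libraries, 10 of LSK and 10 of MEP, was measured, and groups and replicate numbers were taken from the labels. The authors deposited 1 table of FPKM per population, for which the submitters' processing notes name STAR 2.5.1b, SAMtools 1.9, Cufflinks 2.2.1 and mm9. Each role, the annotation and the strandedness are not given in the sources used here. All columns were mapped to samples. Values were analyzed as log2(FPKM + 1) in R 4.3.3 with limma 3.58.1 (moderated test with a trend, 1 mean per genotype, all 4 genotypes in one fit), after a filter at a mean of 1 FPKM. Both thresholds (p of 0.05, unadjusted, and a 1.5-fold change) are those of the study's methods. Differences between LSK and MEP were tested on the within-mouse difference, since the titles name the mouse. Cufflinks estimates abundances, so reads shared between genes can be split, and FPKM understates change in low genes after adding 1.

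The 10 genes and the gene lists were chosen with earlier results of these data known. All 10 were tested and counted in every comparison, and their values are given in part only. From each list the counts are given for Bcor-/- against WT and Bcor-/-Dnmt3a-/- against Dnmt3a-/-, with up to 4 genes of lowest adjusted p among those called at an adjusted p under 0.05. Other list genes in the text were chosen after their values had been seen. The values of 1 list gene are not reported here. The fit was tested for Bcor-/- against WT on simulated data, with the same spread in all genotypes. That setting does not cover the contrasts of Bcor-/-Dnmt3a-/-, whose replicates differed more from each other. Sequences are from RefSeq tables on GRCm38.p6, and exon lengths and overlapping genes from GENCODE on GRCm38, builds other than the one the notes name. Shares and figures were made with Python 3.11.15, pandas 2.3.3, scipy 1.17.1 and matplotlib 3.10.9. Alternatives were a pseudocount of 0.1, no filter, quantile normalization, a fit of the compared genotypes, a replicate block, 1 variance per genotype, the adjusted p, and leaving out each library.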

Additional observations from a re-analysis of the deposited data

Results flagged for a closer look

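Among the PRC1.1 genes, 3 effects differed between conditions by a test of the difference itself, with limma and an adjusted p under 0.05. In MEP the log2 fold change of *Kdm2b* in Bcor-/-Dnmt3a-/- against Dnmt3a-/- minus that in Bcor-/- against WT was -0.86 (adjusted p = 0.0086). By the study's account the first of these contrasts also differs by leukemia and by the extent of *Dnmt3a* deletion, which cannot be told apart from *Bcor* deletion. The effect of the Bcor-/-Dnmt3a-/- genotype on *Ring1* was 0.72 higher in LSK than in MEP (adjusted p = 0.037), and that on *Yaf2* in LSK minus that in MEP was -0.62 (adjusted p = 0.026). Under the alternatives *Kdm2b* kept its call in 15 of 15, *Ring1* in 14 of 16, losing it with 1 variance per genotype and without Bcor-/-Dnmt3a-/- replicate 2 (0.57), and *Yaf2* in 11 of 16 at the unadjusted p. In the fits with only the genotypes compared and with 1 variance per genotype, limma called 0 of 10773 genes by the adjusted p for the Bcor-/-Dnmt3a-/- effect between LSK and MEP, and 2499 and 1426 at an unadjusted p under 0.05 with a fold change above 1.5. All 3 involve the Bcor-/-Dnmt3a-/- libraries, whose replicates differed more from each other than those of the other genotypes.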

How the results depend on the processing

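None of the called changes of the 10 members reversed its sign in an alternative fit. Changes of other list genes were not refitted. Calls by the adjusted p depended on single libraries. Among all LSK genes for Bcor-/- against WT, they numbered 690 in the reported fit, and 3, 434 and 36 without WT replicate 1, 2 or 3. *Bcl6* in LSK was called under all 17 alternatives for Bcor-/- against WT (0.86 to 1.20) and all 16 for Bcor-/-Dnmt3a-/- against Dnmt3a-/- (0.80 to 1.26), and *Bcorl1* in Bcor-/- MEP under all 17 (0.97 to 1.25), at the unadjusted p. The number of the 10 members called for Bcor-/- against WT in LSK was 1 in the reported fit and 2 with a pseudocount of 0.1, with quantile normalization and with the replicate block, the second being *Bcorl1*. It was 1 in MEP and 0 with the adjusted p. For Bcor-/-Dnmt3a-/- MEP it was 4 against Dnmt3a-/-, but 0 with 1 variance per genotype. Against WT it was 4, but 5 with a pseudocount of 0.1 (with *Yaf2*) or the replicate block (with *Rnf2*), 3 with quantile normalization, 2 with the adjusted p, 2 with only the genotypes compared and 1 with 1 variance per genotype. For the difference of the *Bcor* effect with and without *Dnmt3a* deletion in MEP it was 3, but 1 with the adjusted p or 1 variance per genotype. For the difference of the Bcor-/- effect between LSK and MEP it was 1, but 0 with the adjusted p or a pseudocount of 0.1 and 2 with the replicate block. For that of the Bcor-/-Dnmt3a-/- effect it was 2, but 1 with the replicate block and 0 with 1 variance per genotype. The cause of these shifts was not tested.

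Leaving out single libraries gave 1 to 2 members for Bcor-/- against WT in LSK and 1 to 1 in MEP, 3 to 6 and 2 to 5 for Bcor-/-Dnmt3a-/- MEP against Dnmt3a-/- and WT, and 1 to 1 for both in LSK. It gave 0 to 2 in LSK and 2 to 5 in MEP for the difference with and without *Dnmt3a* deletion, 0 to 2 and 0 to 4 for the differences between LSK and MEP, and 0 to 0 for Dnmt3a-/- against WT. Leaving out both Bcor-/-Dnmt3a-/- libraries was added after the data had been seen and left the counts for Bcor-/- against WT at 1 in each population. The labels name different mice under equal replicate numbers of different genotypes and no shared litter or day, and these were not taken as pairs. Deviations of same-numbered libraries correlated at -0.06 to 0.09 in LSK. In MEP they correlated at -0.19 to 0.34 where WT was one of the pair, and at 0.12 to 0.21 in all 6 pairs among the other genotypes. There were 2 libraries in each *Bcor* deleted genotype, and no read counts. How small a change of genes such as *Pcgf1* and *Rybp* could be detected was not tested.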
